A study of Mus musculus with 40 samples.

Results

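RLTR13 and RLTR20 are families of mouse endogenous retroviral long terminal repeats of the ERVK class. Their copies were taken from a table of 835636 annotated repeat copies by name: a copy was kept where any part of its repeat name began with RLTR13 or RLTR20, which gave 4679 copies, 1634 of RLTR13 and 3045 of RLTR20. The names fall into 39 subfamilies, and 216 copies carry a compound name that joins the long terminal repeat to an internal retroviral part, such as ETnERV3-int~RLTR13G. No measured value entered the choice.

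A provirus of the ERVK class is an internal region that once coded for viral proteins, flanked by a long terminal repeat at each end. The repeat holds the viral promoter and the site where the viral transcript ends. Recombination between the flanking repeats leaves a solo repeat, which can serve as a promoter, an enhancer or a transcript end for a nearby host gene. In mouse somatic cells such elements are mostly held silent by DNA methylation and by the KRAB zinc finger, TRIM28 and SETDB1 pathway, and some RLTR13 copies are known as enhancers in trophoblast stem cells.

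RNA was measured in YUMM1.7, a mouse melanoma line whose engineered changes include mutant Braf and loss of Cdkn2a, and in tumours grown from it by serial passage through mice. The 40 polyA libraries make 11 groups: 3 of the parental YUMM1.7 cells, then tumour cells of the passages F0 (4), F1 (4), F2 (5), N2.1 (5), N2.2 (3), N2.3 (3), Balb/c-1 (4), Balb/c-2 (3) and CBA (3), and 3 repeat libraries of the Balb/c-2 tumours, called Balb/c-2 rep2. Letters mark separate tumours within a passage, and every tumour was dissociated and its cells were kept in culture for 1 to 3 passages before RNA was taken. All groups carry the same cell line, Balb/c and CBA are inbred mouse strains, and the host strain of the F and N2 passages and the meaning of N2 were not given in the sources used here. Nothing in the labels says that the 3 parental libraries came from separate cultures, so p-values that use them may measure technical spread only. Sequencing took place in 2021 and 2022, and the libraries of each round are not named. In the table as deposited, 6 columns carry a run label, 5 of them the same one: all 3 CBA libraries and repeat libraries A and C share it, and repeat library B has another. The other 34 columns carry none. CBA was compared with the repeat libraries, and the comparison of Balb/c-2 with its repeat sets columns without a run label beside labelled ones of the same tumours. For the other groups batch and group cannot be told apart. The values are normalised read counts, here called signal, in which 1 read was worth between 0.659 and 1.51 units depending on the library. Depth over all repeat copies ran from 1280522 to 2976730 reads per library.

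Sequences of copies inside annotated exons show what lies under much of this signal. The following are the protein-coding bases of 3 of the copies described below, read from GENCODE M21 transcripts of mm10 on the strand of the gene, with no bases marked. The Tk1 piece covers 87 of the 147 bases of an RLTR20A4 copy (chr11:117816447-117816533, minus strand). The Elmo2 piece covers 82 of 202 bases of another RLTR20A4 copy (chr2:165298661-165298742, minus strand), and the Cachd1 piece covers 54 of 136 bases (chr4:100988584-100988637, plus strand).
Tk1: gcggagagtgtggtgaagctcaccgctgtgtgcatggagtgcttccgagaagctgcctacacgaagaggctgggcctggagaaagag
Elmo2: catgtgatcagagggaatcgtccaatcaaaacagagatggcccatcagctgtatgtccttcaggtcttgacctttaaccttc
Cachd1: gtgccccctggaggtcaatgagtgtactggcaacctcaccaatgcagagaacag
Together with the coding pieces of Pfkl, Eif4g3 and Lrrk1 they made 15 pairs, in which the longest shared run was between 4 and 9 bases and the identity after pairwise alignment between 26.1 and 50.9%. The pieces were 33 to 111 bases long and were aligned end to end with gaps counted, which caps the identity of unequal pairs. They need not come from the same part of the repeat. The 16 tested copies in coding exons had a median length of 154 bases, of which a median of 48 lay in exons, and 0 of the 16 lay wholly in an exon. By contrast 43 of the 48 tested copies in 3′ untranslated regions lay wholly in an exon.

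Some RLTR13 copies hold an annotated transcript end. The next 4 lines are the last 100 bases of noncoding transcripts of Gm32618 in an RLTR13D3A copy (chr15:32795907-32796006, plus strand), 4933431E20Rik in an RLTR13E copy (chr3:107888850-107888949, minus strand), Gm43062 in an RLTR13D2 copy (chr3:103072393-103072492, plus strand) and Pisd-ps2 in an RLTR13B1 copy (chr17:3078168-3078267, minus strand). Capitals mark a run of 7 bases that all 4 share.
Gm32618: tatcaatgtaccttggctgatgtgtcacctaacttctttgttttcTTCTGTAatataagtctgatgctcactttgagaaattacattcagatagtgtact
4933431E20Rik: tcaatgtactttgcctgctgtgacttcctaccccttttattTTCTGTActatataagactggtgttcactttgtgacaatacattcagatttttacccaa
Gm43062: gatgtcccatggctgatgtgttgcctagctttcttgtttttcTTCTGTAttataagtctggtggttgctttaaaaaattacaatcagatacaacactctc
Pisd-ps2: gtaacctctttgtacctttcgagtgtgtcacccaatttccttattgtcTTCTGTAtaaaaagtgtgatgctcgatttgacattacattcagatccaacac
The 6 pairs of these tails, of equal length, had 60.9 to 73.1% identity, and between 45 and 52 bases followed the shared run. These 4 copies were picked. Other tested RLTR13 copies with an end, such as that of Proser3 at 344 bases from the downstream edge, were not printed. The identity of the tails can therefore not be set against that of the coding pieces. The transcripts ended 103, 100, 104 and 103 bases before the downstream edge of their copies, in the order printed. Across all 1634 RLTR13 copies, 57 annotated end positions lay in 52 copies, and 24 of the 57 (42.1%) were 90 to 120 bases from the downstream edge, in 23 copies of 14 subfamilies. For RLTR20 the count was 0 of 22 positions in 16 copies, and for the other ERVK repeats it was 88 of 967 positions (9.10%) in 859 copies. The window of 90 to 120 bases was chosen after the distances had been seen, so these shares are a description with no test. The sequence AATAAA, known as the commonest signal for transcript cleavage, was searched on both strands and was found on the transcript strand in 0 of the 4 tails and on the other strand in the tail of 4933431E20Rik. It was present on the transcript strand in the last 100 bases of 25.1% of 33113 annotated noncoding transcripts. TATAAA was found on the transcript strand at base 54 of the Pisd-ps2 tail.

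**Figure D1:**
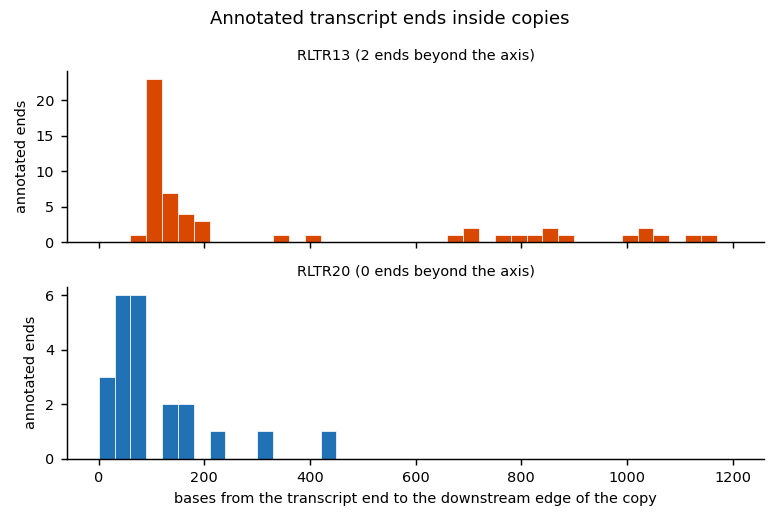
Distance in bases from annotated transcript ends to the downstream edge of the repeat copy that holds them, as the number of end positions per 30-base bin, for RLTR13 and RLTR20. RLTR13 has its highest bar from 90 bases up to 120, and its end at exactly 120 bases falls in the next bar. With that end, 24 of its 57 positions lie between 90 and 120 bases, and RLTR20 has none there.

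Among annotated starts, a noncoding transcript of Tmem181b-ps, a pseudogene of the membrane protein gene Tmem181, begins inside an RLTR13B3 copy. Gm44250 has an exon over the RLTR13B1 copy with the highest mean signal of any RLTR13 copy (chr6:5216697-5217583, mean signal 268). The exon part of the Tmem181b-ps copy is shown with a run of 13 bases in capitals that it shares with the Pisd-ps2 tail (chr17:6449521-6449745, minus strand). The 300 bases of the Gm44250 exon at the upstream edge of its copy are shown with TGAGTCA, the reverse complement of TGACTCA, and CACGTG in capitals (chr6:5217284-5217583, minus strand).
Tmem181b-ps: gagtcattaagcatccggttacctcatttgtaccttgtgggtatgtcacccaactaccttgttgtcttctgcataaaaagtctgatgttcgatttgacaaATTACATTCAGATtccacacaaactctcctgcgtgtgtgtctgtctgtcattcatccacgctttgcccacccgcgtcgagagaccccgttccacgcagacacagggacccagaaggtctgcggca
Gm44250: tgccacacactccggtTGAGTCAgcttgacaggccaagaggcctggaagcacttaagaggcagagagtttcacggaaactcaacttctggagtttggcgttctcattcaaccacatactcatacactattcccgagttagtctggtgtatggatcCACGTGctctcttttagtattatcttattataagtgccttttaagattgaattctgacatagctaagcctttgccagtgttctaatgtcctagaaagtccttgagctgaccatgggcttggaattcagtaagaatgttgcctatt
Of 32851 RefSeq promoter windows of GRCm38.p6, each from 250 bases before to 50 bases after a gene start, 15 windows of 14 genes overlapped an RLTR13 or RLTR20 copy and 4 overlapped a tested copy. The window of Gm16008 has 199 of its 300 bases, in capitals, inside an RLTR20B4_MM copy (chr4:156031613-156031912, minus strand).
Gm16008: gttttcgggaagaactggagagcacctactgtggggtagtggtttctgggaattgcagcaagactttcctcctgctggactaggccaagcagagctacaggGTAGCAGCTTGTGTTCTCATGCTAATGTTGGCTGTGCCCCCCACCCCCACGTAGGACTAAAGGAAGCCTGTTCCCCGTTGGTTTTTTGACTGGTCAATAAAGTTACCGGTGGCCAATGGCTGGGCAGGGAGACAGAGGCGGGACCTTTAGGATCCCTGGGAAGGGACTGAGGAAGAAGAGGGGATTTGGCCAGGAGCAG
Motifs were searched on both strands as the TATA box TATAAA, the polyadenylation signal AATAAA, the E-box CACGTG, the AP-1 motif TGACTCA and the GATA factor motif GATAAG, and AATAAA was the only one found in the Gm16008 window. Over all windows the shares with a match were 13.6, 19.6, 7.15, 5.20 and 7.44% in that order, so single matches of this kind are common. A match is a description and not a known site of any factor.

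Most copies had little or no signal. Of the 4679 copies, 29 were at 0 in all 40 libraries, 4451 had a mean signal above 0 but below 5, and 199 reached a mean of 5 over all libraries and were tested, 84 of RLTR13 and 115 of RLTR20. That is 4.25% of the copies, against 4.45% of 42520 other ERVK copies and 3.97% of all repeat copies. The copies just inside the limit were an RLTR13B1 copy in Pisd-ps2 (mean signal 5.06) and an RLTR13C3 copy in an intron of Lig1 (5.01), and just outside it lay RLTR20A4 copies in the 3′ untranslated region of Rpa2 (4.996) and in an intron of Tead1 (4.97). The tested copies held 90.2% of the families' signal. Of the 199, 118 were above 0 in every library and 14 were at 0 in 10 libraries or more.

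The families differed in where their signal lay. RLTR20 copies, with a median length of 211 bases, held 84.1% of the signal, and 89.9% of RLTR20 signal fell in exons. RLTR13 copies, with a median length of 849 bases, had 38.5% of their signal in exons. Among tested copies, 72 of 115 from RLTR20 and 22 of 84 from RLTR13 overlapped an exon, while 7 and 30 lay between genes and 36 and 32 in introns. RLTR20A4 alone, with 1090 copies of a median length of 123 bases and 48 tested, held 48.7% of the signal. Coding exons held 16 of the 199 tested copies (8.04%) against 1.37% of 1893 other tested ERVK copies and 5.06% of 31123 other tested repeats. An annotated transcript start lay in 6 tested copies (3.02%) against 4.91% for other ERVK copies, and an end in 17 (8.54%) against 11%.

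RLTR13 and RLTR20 together made up between 0.694 and 1.61% of the signal of a library. Group means were 0.858% ± 0.142 (SD, n = 3) in the parental cells, 0.866% ± 0.0884 (n = 4) in F0, 0.895% ± 0.0395 (n = 4) in F1 and 0.846% ± 0.0255 (n = 5) in F2. They were 0.805% ± 0.0614 (n = 5) in N2.1, 0.786% ± 0.0113 (n = 3) in N2.2 and 1.04% ± 0.499 (n = 3) in N2.3. Balb/c-1, Balb/c-2, Balb/c-2 rep2 and CBA had 0.807% ± 0.0250 (n = 4), 0.763% ± 0.0611, 0.848% ± 0.0592 and 0.917% ± 0.0464 (n = 3 each). The high mean of N2.3 came from tumour C at 1.61%, where 1 copy in Igf2 made 55.8% of the families' signal, and without that copy the library stood at 0.713%, near the other groups. In these RNA samples fewer cells of a kind and less RNA per cell cannot be told apart.

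The 12 copies with the highest mean signal were all RLTR20 copies in annotated exons, and they held 49.0% of the families' signal. These levels are sums over a copy and are not corrected for its length. The highest was the RLTR20A4 copy in Tk1, which encodes the thymidine kinase of dividing cells (chr11:117816387-117816533), with 8.21% of the signal. It read 3513, 1812 and 601 in the parental libraries, 699, 1973, 2270 and 1444 in F0, 2174, 1542, 2287 and 1740 in F1 and 1695, 1611, 2132, 906 and 1869 in F2. In the N2 passages it read 930, 874, 1625, 1116 and 1189 in N2.1, 1232, 1231 and 1234 in N2.2 and 513, 526 and 279 in N2.3. It then read 607, 918, 1264 and 1572 in the Balb/c-1 tumours, 452, 686 and 244 in Balb/c-2, 591, 879 and 378 in its repeat libraries and 2026, 1984 and 1687 in CBA. The parental span held every F, N2.1, N2.2, Balb/c-1 and CBA library, while all 3 N2.3 libraries, Balb/c-2 A and C and repeat libraries A and C lay below it. All 3 CBA libraries lay above all Balb/c libraries.

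The other copies of this set lie in genes of metabolism, translation and signalling. The RLTR20A4 copy in Pfkl, a phosphofructokinase of glycolysis (chr10:77996234-77996352), had group means from 801 ± 332 in N2.3 to 1559 ± 248 (SD, n = 4) in F1. The RLTR20C1_MM copies in Nrp2, a co-receptor for semaphorins (chr1:62816905-62817125, 794 ± 112 to 1094 ± 148), and in Nmt2, an N-myristoyltransferase (chr2:3304855-3305183, 460 ± 20.6 to 887 ± 499), had spreads inside groups as wide as much of the difference between them. The one in Eif4g3, a scaffold of translation initiation (chr4:138170513-138170746), ran from 519 ± 88.8 in N2.3 to 1089 ± 241 in Balb/c-2 rep2, and the RLTR20C2_MM copy in Lrrk1, a leucine-rich repeat kinase (chr7:66281512-66281727), from 406 ± 112 in F0 to 746 ± 124 in CBA. The copies in Desi2, a deSUMOylating enzyme (chr1:178252045-178252188, 373 ± 76.9 to 560 ± 44.5), Elmo2, which helps activate Rac (chr2:165298661-165298862, 278 ± 32.3 to 582 ± 101), and Pon2, a paraoxonase (chr6:5265038-5265187, 270 ± 126 to 495 ± 31.1), had their lowest means in N2.2 for Desi2 and in N2.3 for Elmo2 and Pon2. The copies in Iffo2 (chr4:139619082-139619204, 221 ± 37.4 to 517 ± 225) and in Diaph3, a formin that builds actin filaments (chr14:86655604-86655751, 206 ± 60.4 to 552 ± 42.3), complete the set with that of Igf2. In a limma F test over the 11 group means, 9 of these 12 passed an adjusted p of 0.05, and the copies in Pfkl, Nrp2 and Nmt2 did not (adjusted p 0.108, 0.0698 and 0.189).

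The Igf2 copy is the exception in this set. Igf2 encodes an imprinted growth factor, and an RLTR20A4 copy of 332 bases lies wholly in its 3′ untranslated region (chr7:142652668-142652999). An exon of a second annotated gene on the same strand, Gm49394, covers it too, so its reads cannot be assigned to Igf2 alone. The copy read 0, 0 and 2.90 in the parental cells and no more than 4.70 in any F0, F1 or F2 library. It read 16.8, 17.4, 0, 7.95 and 0 in N2.1, 13.8, 125 and 15.7 in N2.2, and 333, 231 and 17104 in N2.3. It was back at 12, 0, 3.84 and 10.4 in Balb/c-1 and stayed at or below 6.05 in Balb/c-2, its repeat libraries and CBA. All 3 N2.3 libraries were thus above every library of the other groups, and tumour C exceeded its group mates by more than an order of magnitude.

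**Figure D2:**
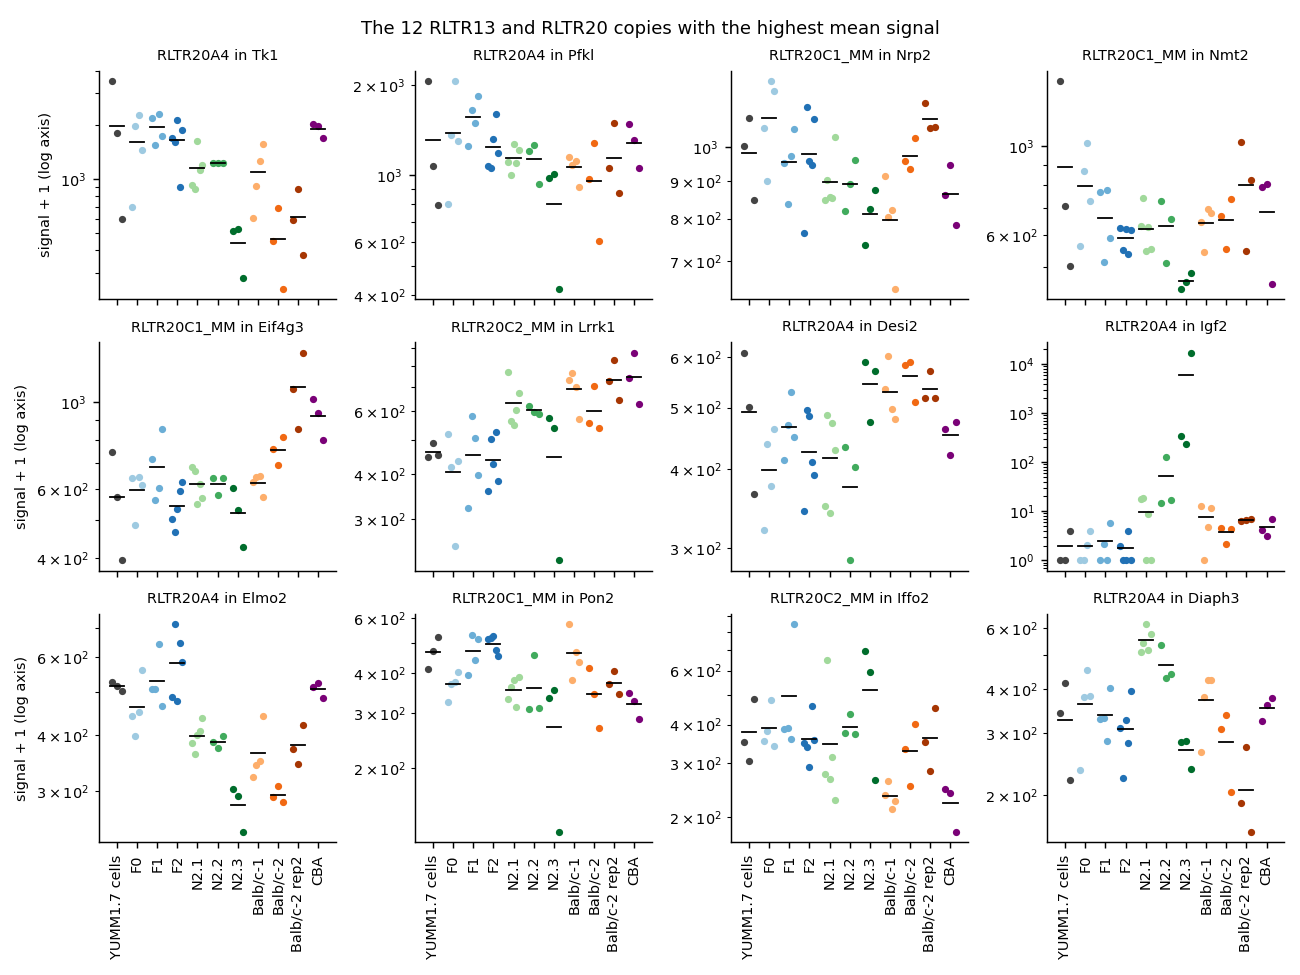
Signal (normalised read count, log scale) of the 12 RLTR13 or RLTR20 copies with the highest mean, 1 point per library and 1 bar for the mean of each group. The Igf2 copy stands at or near 0 outside the N2 passages and peaks at 17104 in N2.3 tumour C, while the Nrp2 copy keeps group means between 794 and 1094.

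Over all 11 groups, 112 of the 199 tested copies (56.3%) differed by the limma F test with Benjamini-Hochberg adjustment over 33215 tested repeat copies, against 41.8% of all tested copies. By place these were 12 of 16 in coding exons, 37 of 48 in 3′ untranslated regions, 13 of 29 in noncoding exons, 31 of 68 in introns, 18 of 37 between genes and the single copy in a 5′ untranslated region. Over all tested repeat copies the called shares were 41.3% in coding exons, 52.6% in 3′ untranslated regions, 39.6% in noncoding exons, 34.7% in introns and 47.5% between genes, and the difference between places was not tested. The test takes the Balb/c-2 repeat libraries as a group of their own although they come from the same 3 tumours, and 104 copies were called without them.

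Of the 105 tested copies outside exons 37 were intergenic, and 30 of these 37 belonged to RLTR13. Outside exons, the 8 copies with the smallest adjusted p of the F test were all intergenic, and 7 of the 8 belonged to RLTR13. An ETnERV3-int~RLTR13G copy and both RLTR13D copies were at 0 in every parental, F0, F1 and F2 library, and the other 5 were read in at least 1 of them. An RLTR13D6 copy on the X chromosome, 604730 bases from the nearest coding gene (chrX:119321527-119322466, adjusted p 3.54e-12), was at 0 in all 3 parental and all 4 F0 libraries and at or below 2.87 in F1 and F2. It read 8.40, 1.02, 7.28, 11.5 and 7.52 in N2.1, 34.3, 29.3 and 16.7 in N2.2 and 15.3, 15.0 and 81.0 in N2.3. It kept group means of 18.5 ± 6.47 in the Balb/c-1 tumours, 28.0 ± 13.9 in Balb/c-2, 22.7 ± 11 in the repeat libraries and 19.8 ± 10.4 in CBA. Each of its 5 tested neighbours within 10000 bases, among them an Lx2 copy (0 in the parental, F0, F1 and F2 groups, 8.42 ± 4.68 in N2.1), also had a higher mean in every later group than in F2.

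An ETnERV3-int~RLTR13G copy of 2716 bases (chr3:16750089-16752804, adjusted p 1.39e-07) was at 0 in all 16 libraries of the parental, F0, F1 and F2 groups. It read 19.3, 5.11, 1.04, 29.1 and 2.26 in N2.1, 8.56, 14.2 and 13.6 in N2.2, 9.32, 7.10 and 12.9 in N2.3 and 8.29, 18.5, 17.3 and 8.32 in the Balb/c-1 tumours. In Balb/c-2 it read 4.83, 7.85 and 3.44, in the repeat libraries 0, 6.63 and 4.54 and in CBA 2.09, 8.69 and 2.35. It was therefore present in 23 of the 24 later libraries. An ETnERV3-int~RLTR13B2 copy (chrX:24077510-24080595, adjusted p 4.73e-06) was low but not absent early, with 0.583 ± 0.537 (SD, n = 5) in F2, and reached 8.44 ± 2.65 (n = 5) in N2.1 and 29.2 ± 10.1 (n = 3) in N2.2.

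A pair of RLTR13D copies lies beside genes of the Magea family, X-linked genes first known as melanoma antigens. The copy 2812 bases from Magea3 (chrX:154944832-154945731, adjusted p 6.56e-07) and the copy 3095 bases from Magea6 (chrX:154920025-154920917, adjusted p 4.58e-06) were at 0 in all 16 parental, F0, F1 and F2 libraries. The first read 0.840 in 1 N2.1 library and 0 in the other 4, then 3.95, 0.837 and 1.04 in N2.2, 11, 9.47 and 0 in N2.3 and 20.3, 5.30, 27.9 and 67.6 in Balb/c-1. The second was at 0 in all 5 N2.1 libraries and read 1.32, 1.67 and 3.13 in N2.2, 2.54, 23.7 and 0 in N2.3 and 20.3, 0.883, 38.4 and 30.2 in Balb/c-1. Both stayed present in all 6 Balb/c-2 libraries, and both were at 0 in CBA tumour C. Each has 1 tested neighbour within 10000 bases, an Lx6 copy that also had a mean of 0 in the F2 group. How reads that match both copies were placed is not stated in the labels or the table.

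An RLTR13B1 copy lies 910 bases from Oas1a, an interferon-induced oligoadenylate synthetase (chr5:120894364-120895346, adjusted p 5.21e-09). It was at 0 in all 11 parental, F0 and F1 libraries and read 0.911, 0, 1.05, 10.5 and 0 in F2 and 14.3, 34.8, 8.31, 0 and 24.8 in N2.1. Group means then ran from 17.9 ± 5.39 in N2.2 to 19.8 ± 4.84 in N2.3, 28.3 ± 24.7 in the Balb/c-1 tumours, 43.3 ± 5.28 in Balb/c-2 and 49.0 ± 10.5 in the repeat libraries, with neighbours in that order differing by less than the larger of their SDs. CBA stood at 3.65 ± 5.34. Repeat copies in introns of Oas1a, such as an MTD-int copy with 23.7 ± 34.2 in F2, 118 ± 81.8 in N2.1, 182 ± 58.9 in the repeat libraries and 40.9 ± 38.3 in CBA, were likewise higher in N2.1 than in F2 and lower in CBA than in Balb/c-2.

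The remaining members of the 8 ran differently. An RLTR20A2 copy 100170 bases from Ifne, an interferon gene (chr4:88980371-88980940, adjusted p 3.70e-09), was highest early and lowest late: 55.2, 51.5 and 55.0 in the parental cells, 48.3 ± 15.7 in F2, 23.6 ± 10.8 in N2.1, 14.6 ± 6.47 in N2.3 and 5.44 ± 6.63 in Balb/c-1. It read 3.62, 3.36 and 0 in Balb/c-2 and 2.09, 3.26 and 10.6 in CBA, and its 7 tested neighbours, led by an Lx10 copy (81.3 ± 12 in the parental cells, 4.14 ± 3.66 in CBA), also had a lower mean in every later group than in F2. An ERVB2_1-I_MM~RLTR13E copy (chr1:7054728-7055734, adjusted p 3.54e-07) varied widely inside groups, with 6.40, 0, 4.08 and 95.7 in F0, 184, 63.6 and 219 in N2.2, 57.6, 2.37 and 0 in N2.3 and 228, 192 and 633 in CBA. It sits in a block with 16 tested neighbours, among them an RLTR13C2 copy at 51.8 ± 21.5 in N2.2 and 206 ± 171 in CBA.

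**Figure D3:**
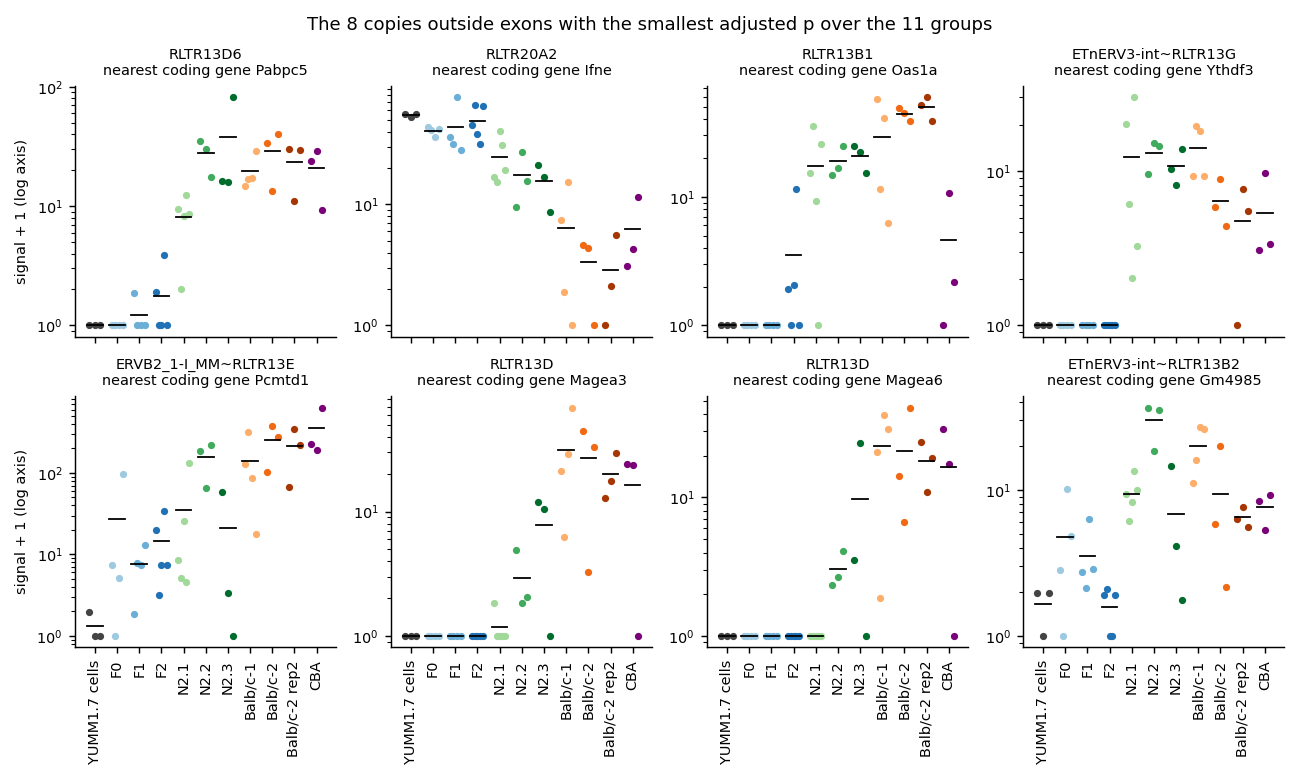
Signal (normalised read count) of the 8 RLTR13 or RLTR20 copies outside exons with the smallest adjusted p of the F test, 1 point per library by group in passage order. The ETnERV3-int~RLTR13G copy is at 0 in the parental cells and the F passages and is read in every later group. Both RLTR13D copies are at 0 there too, but the one near Magea6 is still at 0 in N2.1. The RLTR20A2 copy runs from about 55 in the parental cells down to near 0.

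The 8 comparisons below ask what changed from one stage of the passage series to another. A copy is said to have risen or fallen when its adjusted p (limma on log2(signal + 1), Benjamini-Hochberg over the 33215 tested repeat copies) was under 0.05, and folds are log2 differences on that scale with their standard error. Between the parental cells and F0, 0 of the 199 copies passed, as did 0% of all tested copies, with 14 of the 199 at an unadjusted p under 0.05 and 0 calls among them by edgeR and DESeq2 too. The subfamily sums gave 0 calls as well (0% of 1004 subfamilies). The median log2 change was 0.11 for the families and 0.13 for all copies, and TMM scaling brought the latter to 0.01.

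From F0 to F2, 1 of the 199 copies rose (0.503%), where 0.0391% of all copies were called and 0.0331% were called higher. It is the RLTR20A4 copy in the 3′ untranslated region of Hspb7, which encodes a small heat shock protein (chr4:141424729-141424881). It read 53.0, 7.81, 23.5 and 18.4 in F0 and 61.1, 319, 116, 153 and 159 in F2, and the groups did not overlap (log2 change 2.70 ± 0.53 SE, adjusted p 0.0446). The call was lost without any one of F0 B, C and D and F2 A, B, C and D, each of which left 0 copies called. No RLTR13 or RLTR20 subfamily was called, where 0.199% of all subfamilies were, with 20 copies at an unadjusted p under 0.05.

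Of the 8 comparisons made, N2.1 against F2 had the most called copies: 23 of 199 (11.6%) against 9.7% of all copies, 14 higher (background 7.34%) and 9 lower (2.36%). Of the 94 copies in exons 8 were called lower (8.51%, against 3.84% of all exon copies) and 4 higher (4.26%, against 6.91%). Of the 105 outside exons 10 were called higher (9.52%, against 7.73%) and 1 lower (0.952%, against 1.03%). All 6 called copies among the 84 tested of RLTR13 rose, where 7.34% of all copies were called higher and 2.36% lower. Most calls over all copies were thus higher too. Of the 17 called among the 115 tested copies of RLTR20, 8 rose and 9 fell. The median log2 change was 0.01 for the exon copies and 0.37 for the others, against 0.26 for all copies. The split depended on scaling: 9 rose and 16 fell with TMM scaling, which brought the median of all copies to 0.06, 9 and 13 by edgeR, and 10 and 17 by DESeq2. For all copies it moved from 2439 higher and 783 lower to 1372 and 1324 with TMM. The share of all repeat signal that fell in introns was 24.8% ± 2.28 (SD, n = 5) in N2.1 and 18.9% ± 4.32 (n = 5) in F2, and with that share as a covariate 11 copies were called. Without F2 B the count was 15.

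The copies that fell in N2.1 without overlap lie mainly in genes, as do most tested copies (94 of 199 in exons and 68 in introns). The RLTR20C2_MM copy in the 3′ untranslated region of Glp1r, the receptor of glucagon-like peptide 1 (chr17:30936461-30936591), read 11.8, 31.7, 31.6, 6.69 and 7.27 in F2 and 0, 1.02, 0, 0 and 0 in N2.1 (log2 change −3.74 ± 0.88 SE, adjusted p 0.00411). The RLTR20A4 copy in Cachd1, a membrane protein related to calcium channel subunits (chr4:100988584-100988719), read 127, 117, 120, 91.8 and 99 in F2 and 15.1, 12.3, 12.5, 17.7 and 69.2 in N2.1 (−2.43 ± 0.41, adjusted p 8.47e-05). Only tumour E of N2.1 came near the F2 range. An intergenic RLTR20C1_MM copy 5549 bases from Bnc2, a zinc finger gene (chr4:84269374-84269546), read 25.5, 15.3, 19.0, 27.7 and 6.36 in F2 and 3.36, 0, 2.08, 0 and 6.02 in N2.1 (−2.85 ± 0.64, adjusted p 0.00283). Smaller falls without overlap were seen for copies in Lrrc61 (chr6:48569522-48569657, −0.90 ± 0.26, adjusted p 0.0224), Dnaaf5, a dynein assembly factor gene (chr5:139185739-139185861, −0.63 ± 0.18, adjusted p 0.0211), and Elmo2 (−0.53 ± 0.13, adjusted p 0.00514). The Hspb7 copy fell to 64.7, 57.3, 10.4, 45.9 and 73.0, and F2 A at 61.1 lay inside that range (−1.71 ± 0.50, adjusted p 0.0217).

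Among the copies that rose in N2.1 without overlap, the ETnERV3-int~RLTR13G copy was at 0 in F2 and at least 3.85-fold higher in N2.1 when F2 is set at a floor of 3 reads per library (adjusted p 0.000541). The ETnERV3-int~RLTR13B2 copy rose by 2.61 ± 0.55 (adjusted p 0.00147). An ETnERV3-int~RLTR13B3 copy in an intron of Gm49329 (chr12:17918092-17921873) read 4.56, 3.28, 5.27, 1.91 and 2.73 in F2 and 21.8, 11.3, 26.0, 18.6 and 18.1 in N2.1 (2.15 ± 0.47, adjusted p 0.00201). All 5 N2.1 libraries of each of these copies lay above all 5 of F2. An RLTR20C2_MM copy in an intron of Slc4a1ap, which encodes kanadaptin (chr5:31555870-31556293), rose by 1.47 ± 0.39 (adjusted p 0.0109), and the Diaph3 copy went from 309, 223, 326, 280 and 395 to 511, 542, 613, 519 and 574 (0.87 ± 0.18, adjusted p 0.00152). Of these copies, those in Cachd1, Diaph3, near Bnc2, ETnERV3-int~RLTR13G and ETnERV3-int~RLTR13B2 were called under every setting and without every single library. Those in Lrrc61 (without F2 B or N2.1 B), Dnaaf5 (without F2 C, N2.1 A or N2.1 D) and Hspb7 (without F2 B or N2.1 C) were not.

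From N2.1 to N2.3, 9 of the 199 copies were called (4.52%) against 1.4% of all copies, 5 higher (background 0.726%) and 4 lower (0.677%), and edgeR gave 7 and 1. The Igf2 copy rose most (log2 change 7.80 ± 1.01 SE, adjusted p 1.03e-05). A MYSERV16_I-int~RLTR20B3A_MM copy between genes (chr5:24267386-24268757) read 7.56, 3.07, 2.08, 4.42 and 12 in N2.1 and 69.5, 56.8 and 21.2 in N2.3 (2.91 ± 0.58, adjusted p 0.00507). The RLTR20A4 copy in an exon of Speg, a muscle kinase gene (chr1:75383646-75383836), went from 4.20, 0, 0, 1.77 and 0.752 to 13.6, 15.8 and 25.7 (3.29 ± 0.58, adjusted p 0.00100). In these copies and the next, every N2.3 library lay above every N2.1 library. The RLTR20A4 copy in an intron of Col6a2, a collagen VI chain gene (chr10:76597418-76597635), went from 0.840, 0, 1.04, 0 and 0 to 4.24, 12.6 and 39.4 (3.45 ± 0.77, adjusted p 0.0125). An RLTR13C1 copy between genes (chr8:93443454-93444395) was at 0 in N2.1 and at 14.4, 30.8 and 0 in N2.3, at least 5.53-fold higher against a floor of 3 reads per library (adjusted p 0.0429).

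The copies that fell in N2.3 were those in Tk1 and Diaph3 and a pair of RLTR13 copies. The Tk1 copy fell by 1.40 ± 0.37 (adjusted p 0.0439) and the Diaph3 copy, at 281, 283 and 236, by 1.05 ± 0.21 (adjusted p 0.00582). An RLTR13C1 copy in a noncoding exon of Aspa, an aspartoacylase gene (chr11:73318210-73319190), went from 23.5, 7.16, 7.28, 21.2 and 14.3 to 2.54, 6.31 and 0 (−2.26 ± 0.53, adjusted p 0.0186). An RLTR13D3A1 copy in an intron of Cd80, a costimulatory ligand gene (chr16:38489447-38490222), went from 16.0, 7.16, 10.4, 8.83 and 24.8 to 5.93, 3.94 and 0 (−2.02 ± 0.50, adjusted p 0.0267). Neither of these RLTR13 copies overlapped between the groups. The calls in Igf2, Diaph3, Speg and MYSERV16_I-int~RLTR20B3A_MM held without every single library. The Tk1 call was lost without any one library but N2.1 B, the Aspa call without N2.1 A or N2.3 C, the Cd80 call without N2.1 A, N2.1 E or N2.3 C, the Col6a2 call without N2.3 B or N2.3 C, and that of the intergenic RLTR13C1 copy without N2.3 A or B or N2.1 A, C, D or E.

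From N2.3 to Balb/c-1, 12 of 199 copies were called (6.03%) against 2.2% of all copies, 4 higher (background 0.912%) and 8 lower (1.29%), where TMM scaling gave 6 and 5, edgeR 4 and 5 and DESeq2 7 and 7. The Igf2 copy fell by 7.73 ± 1.06 SE (adjusted p 3.79e-05). The Tmem181b-ps copy whose exon is printed above, an RLTR13B3 copy that holds the transcript start (chr17:6449521-6450451), went from 171, 142 and 142 to 51.6, 50.3, 50.9 and 64.5 (−1.47 ± 0.29, adjusted p 0.00415). Both held under every setting and without every single library, and no library overlapped.

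The other copies that fell were RLTR20 copies in genes and 1 RLTR13C1 copy. In Nr2f2, a nuclear receptor gene (chr7:70357362-70357561), the values went from 15.3, 14.2 and 9.09 to 2.76, 0, 0 and 3.12 (−2.77 ± 0.68, adjusted p 0.0221). In an intron of Ipmk, an inositol kinase gene (chr10:71374307-71374825), they went from 11.9, 4.73 and 4.54 to 0, 0, 0 and 2.08 (−2.49 ± 0.64, adjusted p 0.0296), and in Vdac2, a mitochondrial channel gene (chr14:21842770-21843297), from 67.8, 97.0 and 88.6 to 21.2, 37.1, 45.2 and 38.5 (−1.26 ± 0.31, adjusted p 0.0236). None of these overlapped between the groups. Smaller falls were those of the copies in Iffo2 (−1.04 ± 0.28, adjusted p 0.0422), Alkbh8, a tRNA-modifying enzyme gene (RLTR13C1, chr9:3388834-3389786, −0.97 ± 0.28, adjusted p 0.0493), and Mast3, a kinase gene (chr8:70778994-70779094, −0.67 ± 0.17, adjusted p 0.0229).

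Copies that rose in Balb/c-1 included the one near Bnc2, which went from 0, 0.789 and 0 to 24.9, 11.5, 8.65 and 7.28 (3.38 ± 0.78, adjusted p 0.0137), and one in Ces1a, a carboxylesterase gene (chr8:93039552-93039774), from 1.7, 4.73 and 0 to 29.5, 16.8, 5.76 and 26.0 (2.83 ± 0.75, adjusted p 0.0352). The Pon2 copy rose by 0.90 ± 0.22 (adjusted p 0.0195). The ERVB2_1-I_MM~RLTR13E copy rose with overlapping groups (3.93 ± 1.12, adjusted p 0.0498). The number of called copies fell to 4 without N2.3 C or without Balb/c-1 A, and to 7 without N2.3 B or without Balb/c-1 C. All calls here other than those of Igf2 and Tmem181b-ps were lost without at least 2 libraries. The intron share was 23.8% ± 2.44 (SD, n = 3) in N2.3 and 20.4% ± 2.86 (n = 4) in Balb/c-1, and 5 copies were called with it as a covariate.

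Between Balb/c-1 and Balb/c-2, 0 copies passed (0% of all copies), with 24 at an unadjusted p under 0.05, and edgeR and DESeq2 also called 0 of them. Between Balb/c-2 and its repeat libraries, which come from the same tumours, 0 passed as well (0.232% of all copies), with 15 at an unadjusted p under 0.05 and 0 by edgeR and DESeq2. Subfamily calls were 0 in both (0% and 2.99% of all subfamilies). Deviations of same-lettered libraries of Balb/c-2 and its repeat were positively but weakly correlated (0.155 to 0.255). With the tumour letter as a block the copies stayed at 0 calls and the subfamilies went to 5.

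CBA tumours differed from the Balb/c-2 repeat libraries in 14 of 199 copies (7.04%) against 5.93% of all copies, 7 higher (background 3.39%) and 7 lower (2.54%). TMM scaling gave 5 and 7, edgeR 3 and 5 and DESeq2 3 and 7, and TMM brought the median log2 change of all copies from 0.20 to 0.10. For all copies the split moved from 1127 higher and 843 lower to 885 and 1031 with TMM. The RLTR13B1 copy near Oas1a fell most, from 50.6, 58.6 and 37.8 to 0, 9.78 and 1.17 (log2 change −4.10 ± 0.88 SE, adjusted p 0.00405). An RLTR13D3 copy in Fbln2, a fibulin gene (chr6:91263461-91263585), went from 33.3, 28.7 and 36.3 to 0, 3.26 and 1.17 (−4.00 ± 1.06, adjusted p 0.0190). Another RLTR13D3 copy, in an intron of Gbp8, an interferon-induced GTPase gene (chr5:105076361-105077420), went from 428, 301 and 138 to 9.42, 32.6 and 21.1 (−3.73 ± 0.96, adjusted p 0.0161). The RLTR20A4 copy in the 5′ untranslated region of Ifi209, an interferon-inducible gene (chr1:173630896-173631022), went from 14.6, 23.2 and 9.08 to 0, 3.26 and 2.35 (−2.69 ± 0.78, adjusted p 0.0321). In all 4 the CBA libraries lay below the Balb/c-2 repeat libraries without overlap.

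Other copies that fell in CBA were in Slc7a11, a cystine transporter gene (chr3:50371610-50371721, −2.06 ± 0.60, adjusted p 0.0327), Mrps17, a mitochondrial ribosome gene (chr5:129721769-129722665, −1.74 ± 0.52, adjusted p 0.0374, with overlapping groups), and Gna13, a G protein gene (chr11:109397662-109397795, −0.59 ± 0.18, adjusted p 0.0457). The Tk1 copy rose from 591, 879 and 378 to 2026, 1984 and 1687 (1.7 ± 0.42, adjusted p 0.0112). An RLTR20A2 copy in an intron of Cars2, a mitochondrial aminoacyl-tRNA synthetase gene (chr8:11523038-11523615), rose from 6.65, 7.74 and 0 to 20.9, 27.2 and 23.4 (2.61 ± 0.60, adjusted p 0.00749), and an RLTR13A3 copy in an intron of Orc1, a replication origin gene (chr4:108607770-108608742), from 1.33, 1.10 and 0 to 7.32, 10.9 and 8.21 (2.51 ± 0.64, adjusted p 0.0147). None of these 3 overlapped. An RLTR20A copy in Ankrd54 (chr15:79054672-79055186) rose by 2.22 ± 0.51 (adjusted p 0.00723), and an ERVB2_1A-I_MM~RLTR13D3A1 copy 1794 bases from Nsun6 (chr2:14990108-14993337) by 1.04 ± 0.30 (adjusted p 0.0305). The copies in Diaph3 (0.81 ± 0.24, adjusted p 0.0332) and Usp20 (chr2:31012112-31012386, 0.89 ± 0.27, adjusted p 0.0426) rose less.

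The intron share was 25.9% ± 1.38 (SD, n = 3) in CBA and 18.4% ± 0.949 (n = 3) in the Balb/c-2 repeat libraries. With that share as a covariate 1 copy was called, that of Tk1. Without Balb/c-2 rep2 C 2 copies were called, without CBA A or CBA C 6, without CBA B 8 and without Balb/c-2 rep2 A 9. The copy near Oas1a was called without every single library, and the Tk1 and Cars2 copies were lost only without Balb/c-2 rep2 C. The Ankrd54 call was lost without Balb/c-2 rep2 C or CBA C, that of Orc1 without Balb/c-2 rep2 C or CBA B, that of Gbp8 without Balb/c-2 rep2 A, CBA A or CBA C, and that of Fbln2 without any one of Balb/c-2 rep2 A and C and CBA A and C. The other 7 were each lost without at least 4 of the 6 libraries.

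**Figure D4:**
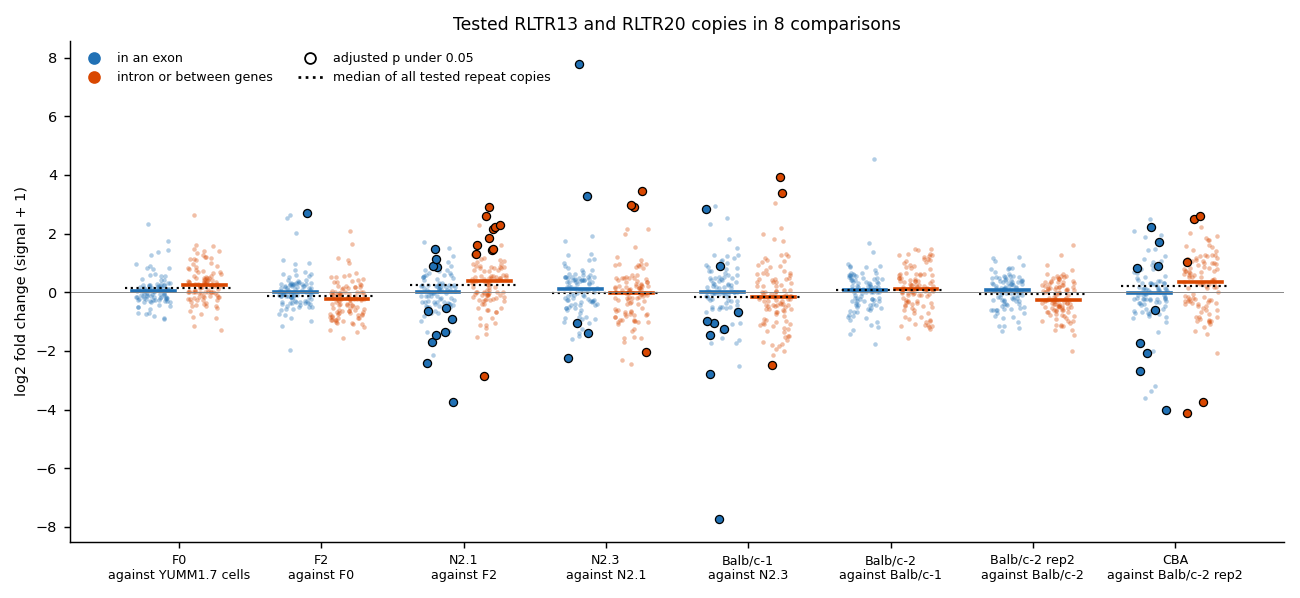
Log2 fold changes of tested RLTR13 and RLTR20 copies in each comparison, exon and other copies in different colours. The Igf2 copy goes up by 7.80 from N2.1 to N2.3 and down by 7.73 from N2.3 to Balb/c-1, and the copy near Oas1a lies at −4.10 in CBA.

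Over all comparisons 59 calls fell on 52 copies, and 6 copies were called more than once: Diaph3 in 3 comparisons, and Tk1, Igf2, Hspb7 and the copies near Oas1a and Bnc2 in 2 each. Some comparisons share a group, so an up call in one and a down call in the next are not independent. This holds for Igf2 in N2.3, Hspb7 in F2 and Diaph3 in N2.1.

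Copies in exons can be set beside the other repeat copies in exons of the same gene, summed. Of the 36 calls of exon copies, 18 had such a tested partner, and in 8 the gene was itself called in the same direction and in 0 in the other. The fitted partner change had the sign of the copy in all 18, but partners that were not called included Dnaaf5 at −0.00116 (adjusted p 0.998) and Pon2 at 0.13 (adjusted p 0.872). By comparison the called partners were 1 of 6 in N2.1 against F2 (background of all genes 14.9%), 0 of 2 in N2.3 against N2.1 (3.69%), 1 of 2 in Balb/c-1 against N2.3 (7%) and 6 of 8 in CBA against the Balb/c-2 repeat libraries (12.5%). For Glp1r the partners were called lower with the copy, from a mean of 23.8 ± 26.1 in F2 to 0 in every N2.1 library (adjusted p 0.0235). For Tk1 in CBA the copy changed by 1.7 and its partners by 1.51 (adjusted p 0.00306). Fbln2 (−4.00 and −3.66, adjusted p 0.0291), Ifi209 (−2.69 and −2.44, adjusted p 0.0313), Slc7a11 (−2.06 and −2.04, adjusted p 0.00616) and Gna13 (−0.59 and −0.60, adjusted p 0.0128) moved by nearly the same amount. Copy and partners share the same libraries, so this is a description and not a second experiment.

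In some genes the copy moved further than the rest of the gene. The pairs were chosen because the copy was called, and partners were not chosen by their change. Larger changes of the copy than of its partners are favoured by that choice. The Ankrd54 copy rose by 2.22 in CBA where its partners changed by 0.22 (adjusted p 0.498), and the Srprb copy, in a signal recognition particle receptor gene (chr9:103187962-103188094), by 1.46 ± 0.39 in N2.1 where they changed by 0.16 (adjusted p 0.811). The Dnaaf5 copy fell by 0.63 in N2.1, beside the partner value given above. The Akap8 copy, in a kinase-anchoring protein gene (chr17:32303549-32303789), rose by 0.90 ± 0.20 against 0.03 (adjusted p 0.913), and the Mrps17 copy fell by 1.74 where its partners fell by 0.67 (adjusted p 0.0439). The copies in Akap8, Srprb and Mrps17 hold an annotated transcript end, and those in Ankrd54 and Dnaaf5 do not. Copies in Adprh (−1.37, partners −0.29), Aspa (−2.26, partners −1.08) and Pon2 (0.90, partners 0.13) also moved further and hold no annotated end. The Elmo2 copy holds an end and changed by −0.53 in N2.1, where its partners changed by −0.25. The difference between copy and gene was not tested, nor was any link to transcript ends. Igf2, Hspb7, Cachd1 and Diaph3 had no tested partner, so for them no such value exists here.

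**Figure D5:**
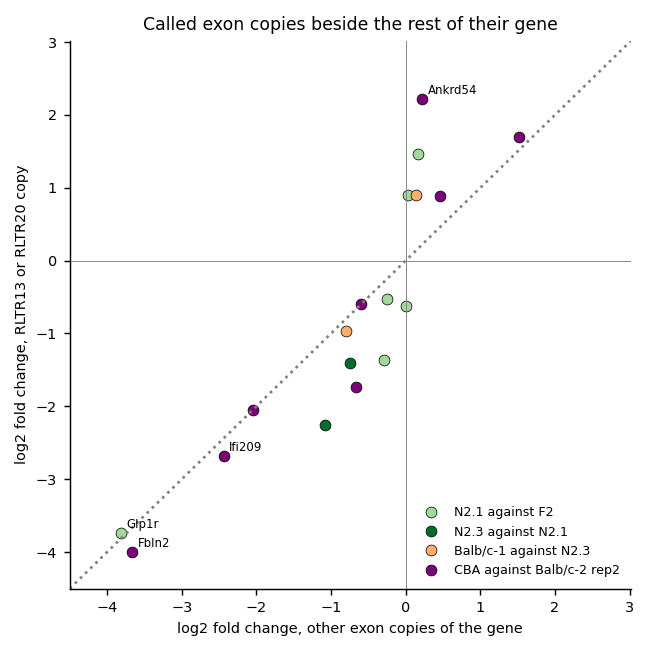
Log2 fold change of each called exon copy (vertical axis) against that of the other repeat copies in exons of the same gene, summed (horizontal axis), for the 18 pairs with a tested partner, coloured by comparison. The dotted line marks equal change. Dnaaf5 lies on the vertical line at 0, Ankrd54, Srprb, Akap8 and Pon2 lie close to it, and Glp1r, at the lower left, has partners at 0 in N2.1.

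Summed by subfamily, 38 of the 39 subfamilies were tested among 1004. The largest by mean were RLTR20A4 (7752), RLTR20C1_MM (3036) and RLTR20C2_MM (1502), each with over 88% of its signal in exons, then RLTR13B1 (393), RLTR13D3A1 (309) and RLTR13D2 (255). In N2.1 against F2, 13 of the 38 subfamilies rose and 0 fell, where 39.3% of all subfamilies were called, 361 higher and 34 lower. RLTR20B1 went from 31.4 ± 9.53 to 79.1 ± 3.60 (SD, n = 5; 1.36 ± 0.25 SE, adjusted p 1.10e-04) and RLTR20B5_MM from 62.2 ± 7.85 to 107 ± 15.9 (0.77 ± 0.17, adjusted p 0.000876), and these were called under every setting and without every single library. RLTR13B2 (1.00 ± 0.31, adjusted p 0.00979) and RLTR13C2 (0.88 ± 0.27, adjusted p 0.0117) rose too, but not with TMM scaling, edgeR, DESeq2 or the intron covariate. With TMM scaling 3 subfamilies were called, 2 higher and 1 lower, by edgeR 4, by DESeq2 5 and with the intron covariate 2, and without F2 B the count was 8. RLTR13D6 had the largest change (1.45 ± 0.55, adjusted p 0.0343) with 683 ± 1316 in N2.1 against 64.0 ± 11.6, and the call was lost without N2.1 A, F2 B or F2 E. A single RLTR13D6 copy between genes (chrX:80215946-80216698), looked at after this had been seen, read 2887 in N2.1 A, 0.940 in F1 E and 0 in the other 38 libraries.

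N2.3 against N2.1 gave 0 subfamily calls by limma (0.498% of all), 1 by edgeR and 3 by DESeq2, and 1 without N2.3 C. In Balb/c-1 against N2.3, 4 subfamilies fell and 0 rose (3.88% of all were called, 17 higher and 22 lower). RLTR13B3 went from 202 ± 21.5 to 95.3 ± 15.2 (−1.08 ± 0.25, adjusted p 0.00936), with 68.5% of its signal in the Tmem181b-ps copy, and RLTR13D4 (−1.10 ± 0.30, adjusted p 0.0336), RLTR20A2B_MM (−0.91 ± 0.26, adjusted p 0.0435) and RLTR13A2 (−0.90 ± 0.23, adjusted p 0.0228) fell too. These counts went to 0 without N2.3 A, to 1 without Balb/c-1 C and to 2 without N2.3 B, N2.3 C, Balb/c-1 A or Balb/c-1 D. In CBA against the Balb/c-2 repeat libraries, 6 were called, 4 higher and 2 lower (14.1% of all were called, 68 higher and 74 lower). RLTR13D3 fell from 338 ± 147 to 31.4 ± 12.9 (−3.38 ± 0.70, adjusted p 0.00141), with 83.8% of its signal in the Gbp8 copy, and this held under every setting and without every single library. RLTR13D2 fell from 626 ± 416 to 117 ± 33.6 (−2.22 ± 0.65, adjusted p 0.0235). Its main copy holds a transcript end of Ifi208, an interferon-inducible gene (chr1:173690582-173698503), and read 842, 423 and 180 in the repeat libraries and 12.6, 96.7 and 27.0 in CBA, a difference that did not pass (−3.59 ± 1.3, adjusted p 0.0884). RLTR13D1 (1.16 ± 0.39, adjusted p 0.0429), RLTR20A3_MM (0.79 ± 0.23, adjusted p 0.0235), RLTR20A2 (0.78 ± 0.25, adjusted p 0.0328) and RLTR20A (0.62 ± 0.22, adjusted p 0.0477) rose. The 6 became 2 without Balb/c-2 rep2 A or C and 3 without any one CBA library, and with the intron covariate 1 was called.

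Genes that silence ERVK elements were read through repeat copies in their exons, and 23 of 29 listed genes were tested. Genes were fitted with the main setting only, without TMM scaling, the intron covariate, edgeR, DESeq2 or left-out libraries. For copies, those settings changed the counts of calls and their split. The shares of all genes are given without direction. In N2.1 against F2, 5 rose and 0 fell (background of all genes 15%): Uhrf1, which brings DNA methyltransferase to replicating DNA (66.4 ± 31.7 to 166 ± 26.5 SD), Atf7ip, a partner of SETDB1 (2.86 ± 2.46 to 10.6 ± 5.36), the chromatin remodeller Atrx (113 ± 17.7 to 173 ± 31.0), the heterochromatin protein gene Cbx5 and the KRAB zinc finger gene Zfp809. The F2 mean of Atf7ip was worth only about 3 reads. In Balb/c-1 against N2.3, 2 rose, Cbx5 and Pphln1, a subunit of the HUSH silencing complex, and 0 fell (7.2%). In CBA against the Balb/c-2 repeat libraries 6 rose and 1 fell (12.4%), with Uhrf1 from 24.8 ± 14.7 to 120 ± 21.1 (log2 change 2.38 ± 0.40 SE, adjusted p 0.000296), the chromatin assembly gene Chaf1a from 36.9 ± 7.80 to 101 ± 6.46 (1.45 ± 0.23, adjusted p 0.000231), Cbx1, Cbx3, Cbx5 and Atrx higher and Zfp809 lower (−0.50 ± 0.13, adjusted p 0.0129). Uhrf1 stood at 73.7 ± 8.34 in the first Balb/c-2 libraries and was called lower in the repeat libraries of those tumours (−1.69 ± 0.40, adjusted p 0.0456), so the value for CBA depends on which libraries it is set against. Chaf1a read 37.5 ± 5.17 in the first libraries and 36.9 ± 7.80 in the repeat. Of 8 trophoblast factors known to bind RLTR13 copies, only Tead4 was tested, and it was not called in any comparison.

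Markers of leukocytes and endothelial cells were low where they could be read. Only 5 of 8 leukocyte genes and 2 of 6 endothelial genes had an exon copy, so the absence of such cells was not shown. Leukocyte genes summed to between 0 and 15.5 and endothelial genes to between 0 and 3.26 per library over all groups, and no gene of either list reached the limit for testing, with Ptprc and Pecam1 at means of 0.0816 and 0.156. Of 10 melanocyte genes 4 had an exon copy, and Gpnmb alone was tested (mean signal 67.0), while Tyr and Mlana stood at means of 0.0286 and 0.0694, so the melanoma label could not be checked through them. Of 8 fibroblast genes 5 had an exon copy, and their sum ran from 629 to 2759 per library, with 1635 to 2606 in the parental cell line. Pdgfra and Pdgfrb, which encode receptors of platelet-derived growth factor, were the 2 tested. Pdgfra had its highest group mean in the parental cells (1194 ± 401) and fell in N2.1 (721 ± 262 in F2 to 464 ± 399, −0.86 ± 0.29 SE, adjusted p 0.0371), the comparison with the most called copies. Pdgfrb read 609 ± 107 in F2 and 778 ± 473 in N2.1 and was not called (0.20 ± 0.30, adjusted p 0.705). The part of either in those calls was not tested.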

How the data were processed

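PolyA RNA was measured in 40 libraries of YUMM1.7 cells and tumours derived from them. The authors deposited 1 table of normalised signal per repeat copy on mm10. HISAT2 2.0.5, StringTie 1.3.3b and featureCounts 1.5.0-p3 are named in the submitters' processing notes without their roles, and the treatment of reads that match several copies, the strand setting and the repeat annotation were not given in the sources used here. Every deposited signal value was a whole number of reads times 1 factor per library (100% of values within 0.1 read), so counts could be recovered for edgeR and DESeq2.

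Groups of the F, N2, Balb/c-1 and Balb/c-2 passages were taken from the treatment given in the sample records. The parental, Balb/c-2 rep2 and CBA groups were taken from the sample titles. For copies with a mean signal of at least 5, limma 3.58.1 (R 4.3.3) was run on log2(signal + 1), with the mean of each of the 11 groups, a trend in the variance and Benjamini-Hochberg adjustment over 33215 copies, and a threshold of 0.05. Subfamilies and genes were tested as sums in the same way, genes as the repeat copies in their GENCODE M21 exons (bedtools 2.31.1). The unit is a sum over a copy, so copies of different length were not ranked as expression levels. Alternatives were run for copies and subfamilies and not for genes. They were TMM scaling, a pseudocount of 5, no filter, the intron share as a covariate, only the 2 groups compared, the tumour letter as a block, each library left out, edgeR 4.0.16 and DESeq2 1.42.0 on the recovered counts. On the counts edgeR called 2678 of all copies in N2.1 against F2, where limma called 3222.

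Tumour letters pair libraries only between Balb/c-2 and its repeat, which share tumours: same-lettered deviations correlated at 0.155 to 0.255 and others at −0.195 to −0.0563. The fit was tested on simulated data with changes in 66 or 67 of 33215 copies per fold size. Every copy was given the same dispersion, and copies without a change had equal means in all groups. In N2.1 against F2, 4-fold changes were recovered in 59.7% of cases and 2-fold changes in 1.49%. For CBA against the Balb/c-2 repeat libraries the shares were 22.4% and 1.49%. Copies with a wider spread inside groups were not imitated, so these rates need not hold for them.

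Copies named in each comparison were those called without overlap between groups, all if there were 10 or fewer and otherwise the 5 highest and 5 lowest, and overlapping ones where there were 5 or fewer. The 12 highest copies, the 8 copies outside exons with the smallest adjusted p and called subfamilies were named too, and copies of interest beyond the rule were added after their values were seen. The members, gene lists and rules were chosen with earlier results of these data known. Sequences came from GENCODE M21 transcripts and RefSeq promoter windows of GRCm38.p6.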

Additional observations from a re-analysis of the deposited data

Results flagged for a closer look

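Among 92 groups of values from the copies with the highest signal and the 8 copies outside exons, 8 had 1 library far from the rest of its group, where chance alone marks about 1 in 20 groups of normally spread values. The 92 do not cover every group of these copies, and all 8 flags fell in groups of 4 or 5 libraries. Groups of 3 were thus not shown to be free of such values. The Igf2 copy in N2.3, where tumour C lay far above its group mates, is not among the flags. The Iffo2 copy (RLTR20C2_MM) read 848 in F1 E, where the nearest F1 library read 390, and 651 in N2.1 B, where the nearest read 313. The ERVB2_1-I_MM~RLTR13E copy on chromosome 1 read 95.7 in F0 D against 6.40 in the nearest library, and 130 in N2.1 E against 24.9. The RLTR20A2 copy near Ifne read 75.9 in F1 D against 35.1. The RLTR13B1 copy near Oas1a read 10.5 in F2 D against 1.05. In the RLTR13D6 copy on the X chromosome F1 A read 0.878 and in the RLTR13D copy near Magea3 N2.1 A read 0.840, each about 1 read in a group otherwise at 0.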

How the results depend on the processing

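Of 82 named changes of copies and subfamilies, 11 kept their call under every setting and without every single library, 0 reversed, and 55 were lost without at least 1 library. Calls were lost for 53 with the intron share as a covariate, 39 with no filter, 35 with only the 2 groups compared, 33 by edgeR, 23 with TMM scaling, 20 of 79 by DESeq2 and 4 with a pseudocount of 5. Counts of called copies moved as follows, and the cause was not tested. Without a filter they became 2 for F2 against F0, 12 for N2.1 against F2, 31 for N2.3 against N2.1, 30 for Balb/c-1 against N2.3, 10 for Balb/c-2 against Balb/c-1, 1 for its repeat and 8 for CBA. With the intron covariate they were 0 (F2), 11 (N2.1), 5 (Balb/c-1) and 1 (CBA), and with only the 2 groups 0 (F2), 3 (Balb/c-1) and 6 (CBA). A pseudocount of 5 gave 1 for Balb/c-2, and edgeR gave 0 for F2 and 8 for CBA. Subfamily counts became 3 with TMM scaling, 2 with the intron covariate, 4 by edgeR and 5 by DESeq2 for N2.1, and 1, 1 and 3 by the intron covariate, edgeR and DESeq2 for N2.3. For Balb/c-1 they were 2 with the covariate, 1 with 2 groups and 8 by DESeq2, for the Balb/c-2 repeat 1 by DESeq2 and for CBA 1 with the covariate. With the tumour letter as a replicate block, which pairs libraries only between Balb/c-2 and its repeat, copies were 0 (F2), 14 (N2.1), 1 (N2.3), 3 (Balb/c-1), 0 (Balb/c-2), 0 (repeat) and 2 (CBA) and subfamilies 2 (Balb/c-1), 5 (repeat) and 2 (CBA), and 52 named calls were lost. No paired analysis was possible for F0 against the parental cells because they share no letters. Leaving out 1 library gave copies in the ranges 0 to 1 (F2), 15 to 23 (N2.1), 6 to 12 (N2.3), 4 to 11 (Balb/c-1), 0 to 1 (Balb/c-2), 2 to 13 (CBA) and 103 to 116 (F test), and subfamilies 0 to 1 (F2), 8 to 14 (N2.1), 0 to 1 (N2.3), 0 to 4 (Balb/c-1) and 2 to 6 (CBA). Without the Balb/c-2 repeat libraries, a setting chosen after seeing the data, the F test over the groups called 104 copies. Counting copies by their first name only gave shares of 0.758% in N2.2 and 0.763% in Balb/c-1. Depth limits copies near the filter, where 1 read is a sizeable part of the signal.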
